A study of Mus musculus with 10 samples.

Results

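Interleukin-10 (Il10), the 3 cytokine genes that lie next to it in the mouse genome (Il19, Il20 and Il24), the chains of the interleukin-10 receptor (Il10ra and Il10rb) and the kinase gene Mapkapk2 were followed across B cells sorted by whether they secrete interleukin-10. These 7 genes were found by name, counting older symbols and ignoring letter case, and 8 of the 45281 probes on the array carried one of the names: 2 for Il10rb and 1 for each other gene. The samples were B cells freshly taken from the spleen of C57BL/6 mice, and Illumina MouseWG-6 beadchips measured their RNA. The 10 arrays comprised 5 from the IL-10+ sort, 3 from the IL-10- sort (replicates 2, 3 and 5) and 2 from total B cells, with no age given in the labels. The text on stimulation is the same for every sample and gives 5 h with lipopolysaccharide (LPS) at 10 µg/ml, the phorbol ester PMA at 50 ng/ml and the calcium ionophore ionomycin at 500 ng/ml. IL-10+ and IL-10- cells were then separated with a kit that captures secreted interleukin-10 on the cell surface, followed by flow sorting. By that text there was no unstimulated group, so the levels are those of strongly activated cells, and no label ties a replicate to its own mouse: the p-values below rest on the spread between these arrays, which may be technical.

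Interleukin-10 is a cytokine that dampens inflammation, and B cells that make it are studied as regulatory B cells. It acts through a receptor of a ligand-binding chain, encoded by Il10ra, and a second chain, encoded by Il10rb, that is shared with the receptors for interleukin-22 and the type III interferons; the receptor signals through the kinases Jak1 and Tyk2 and the transcription factor Stat3. Interleukins 19, 20 and 24 are related in structure but use other receptors, built from the products of Il20ra, Il20rb and Il22ra1. Mapkapk2 encodes MK2, a kinase activated by p38 that controls the stability of several cytokine mRNAs through AU-binding proteins such as the product of Zfp36. The 5 genes Il24, Il20, Il19, Il10 and Mapkapk2 follow each other in this order on chromosome 1 in the RefSeq annotation, whereas Il10ra lies on chromosome 9 and Il10rb on chromosome 16.

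Il10 transcript was far higher in IL-10+ than in IL-10- cells, with total B cells between them, and Il19 was the other gene of the group that stood clearly above both comparison groups in IL-10+ cells. Il20 was below the detection limit everywhere and Il24 was at that limit. Il10ra and Mapkapk2 were higher in both sorted groups than in total B cells, and Il10rb did not differ between the sorted groups by the test used. The titles of the total B arrays name no IL-10 fraction. Any part of the capture and sorting steps in the comparisons with total B cells was not tested. The next paragraphs give the array values, first as bead intensity on the linear scale as deposited and then as normalized log2 level; levels of different probes are not compared with each other, because probes differ in how strongly they bind.

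The Il10 probe (1260632) read 9796, 12157, 9348, 13090 and 10490 on the IL-10+ arrays, replicates 1 to 5. It read 220.2, 247.2 and 316.6 on the IL-10- arrays of replicates 2, 3 and 5, and 1897 and 812.8 on the arrays of total B cells. All 10 arrays detected it, and no group overlapped another: IL-10+ was highest, IL-10- lowest and total B cells lay between. After normalization the mean level was 13.18 ± 0.28 (SD) over the 5 IL-10+ arrays, 7.75 ± 0.19 over the 3 IL-10- arrays and 10.26 ± 0.53 over the 2 of total B cells, and later levels are means ± SD over the same arrays. IL-10+ exceeded IL-10- cells by 5.44 ± 0.21 (SE) on the log2 scale, a 43.3-fold difference, with adjusted p = 6.01e-07 in the limma fit. IL-10+ cells lay 7.59-fold above total B cells (log2 2.92 ± 0.24, adjusted p = 4.99e-05), and IL-10- cells lay 5.70-fold below them (log2 -2.51 ± 0.26, adjusted p = 0.000697). Because the cells were sorted on secretion of this protein, the transcript serves here as a check on the labels, and it was in accord with the label on all 10 arrays.

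In these bulk samples, more cells that hold a transcript and more transcript per cell cannot be told apart. The IL-10- cells still gave a detected Il10 signal on 3 of 3 arrays. Within the 3 pairs of arrays that share a replicate number, IL-10+ exceeded IL-10- by 5.73, 5.43 and 5.57 on the log2 scale, so the pairs differed from each other far less than the sorted groups did.

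**Figure D1:**
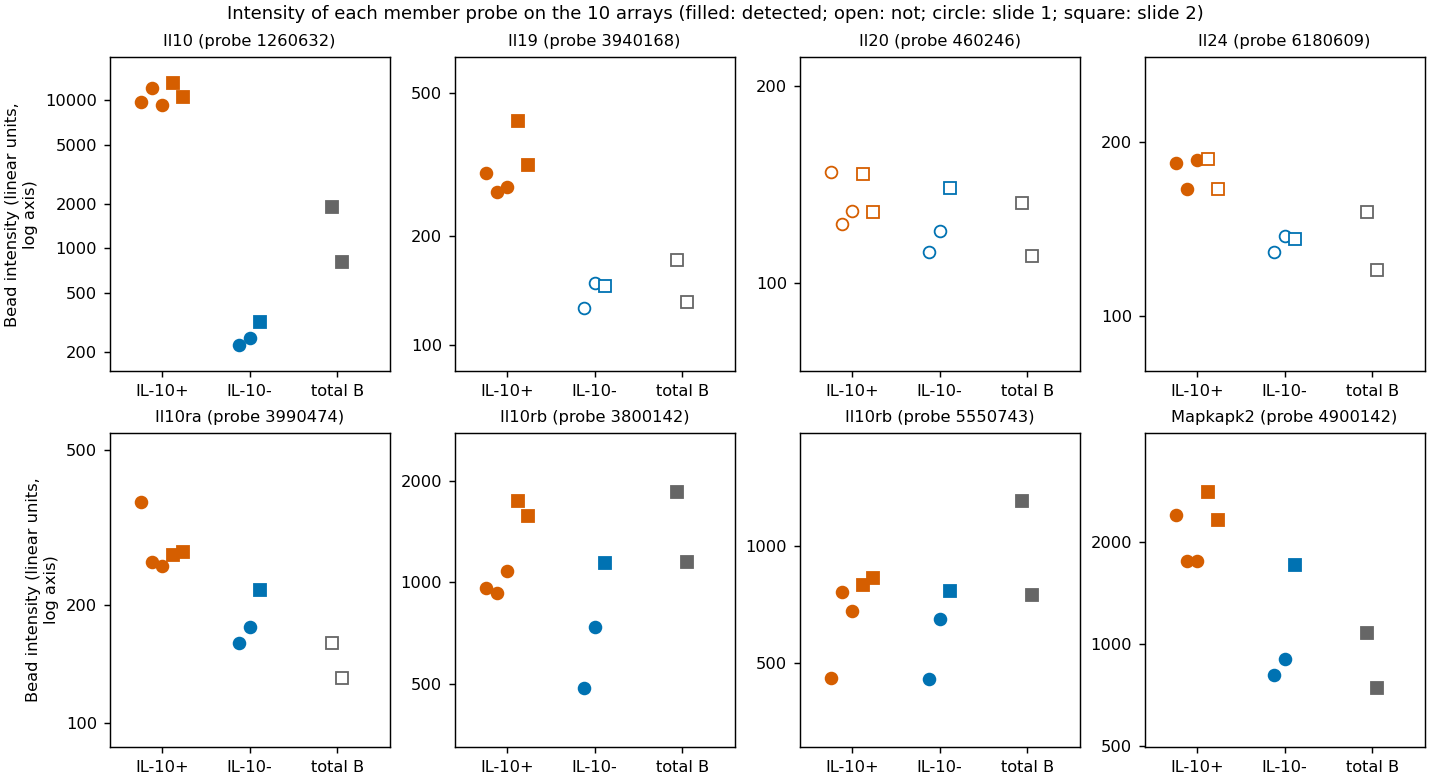
Bead intensity of the 8 probes of the 7 genes on each array (log axis), by group; each point is 1 array, circles and squares tell the slides apart, and filled points mark arrays on which the probe was detected at a detection p under 0.01. Il10 separates the groups by the widest interval of the 8 probes, Il19 is filled only in IL-10+ cells, and Il20 has no filled point.

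Il19, which encodes a cytokine close to interleukin-20, was detected in IL-10+ cells alone. Its probe (3940168) read 299.8, 264.7, 273.7, 418.2 and 314.1 on the IL-10+ arrays. It read 126.5, 148.3 and 145.8 on the IL-10- arrays and 171.5 and 131.2 on those of total B cells. The lowest IL-10+ array was therefore above every array of the other groups, and the probe was detected on 5 of 5 IL-10+ arrays, on 0 of 3 IL-10- arrays and on 0 of 2 arrays of total B cells. The normalized level was 7.28 ± 0.13 in IL-10+ cells, against 5.00 ± 0.31 and 5.26 ± 0.20 in IL-10- and total B cells. Where a gene was detected on no array of a group, its level there is only a bound, so the fold is given as a minimum, against the higher of the lowest signal detected on each array and the probe's own value. On that footing Il19 was at least 2.94-fold higher in IL-10+ than in IL-10- cells (adjusted p = 2.30e-05) and at least 3.24-fold higher than in total B cells (adjusted p = 7.94e-05). These minima hold for the background-corrected scale: with no background correction the log2 differences were 0.85 (adjusted p = 5.86e-05) and 0.78 (adjusted p = 0.000143), and with an offset of 50 they were 1.51 and 1.38. The mean intensities as deposited were 314.1, 140.2 and 151.3 in IL-10+, IL-10- and total B cells. Across the 3 pairs the differences were 2.29, 1.95 and 2.63 on the log2 scale. Both comparison groups were below detection, so no fold between them is given; the fitted difference was -0.26 with a 95% interval from -0.69 to 0.17.

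RefSeq promoter windows (GRCm38.p6, 250 bases before the gene start and 50 after it) were at hand for Il19, Il20 and Mapkapk2, and they are shown because these 3 neighbours on chromosome 1 had different patterns over the same cells: Il19 detected in IL-10+ cells alone, Il20 not detected, and Mapkapk2 detected in every group. All 3 genes are read from the minus strand; the windows are chr1:130940066-130940365 for Il19, chr1:130911247-130911546 for Il20 and chr1:131097794-131098093 for Mapkapk2. Capitals mark a match to the STAT motif TTCNNNGAA.
Il19: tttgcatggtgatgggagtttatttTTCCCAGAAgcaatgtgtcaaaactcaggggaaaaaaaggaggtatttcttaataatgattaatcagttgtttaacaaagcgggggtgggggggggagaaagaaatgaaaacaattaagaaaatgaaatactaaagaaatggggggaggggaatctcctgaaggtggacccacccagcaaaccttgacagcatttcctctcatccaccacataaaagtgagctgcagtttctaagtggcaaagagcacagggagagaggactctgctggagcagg
Il20: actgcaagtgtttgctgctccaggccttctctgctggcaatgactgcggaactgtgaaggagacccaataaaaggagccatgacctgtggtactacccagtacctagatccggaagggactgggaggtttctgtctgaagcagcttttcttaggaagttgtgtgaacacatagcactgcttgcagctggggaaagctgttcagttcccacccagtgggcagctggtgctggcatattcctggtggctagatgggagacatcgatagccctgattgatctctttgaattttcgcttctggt
Mapkapk2: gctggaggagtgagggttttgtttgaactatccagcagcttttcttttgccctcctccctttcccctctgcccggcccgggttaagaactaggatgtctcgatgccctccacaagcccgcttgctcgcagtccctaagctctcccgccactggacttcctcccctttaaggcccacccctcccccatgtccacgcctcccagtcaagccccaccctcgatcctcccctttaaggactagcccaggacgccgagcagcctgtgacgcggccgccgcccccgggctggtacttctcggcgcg
Besides the STAT motif, both strands were searched for TATAAA, the core promoter box, for the AP-1 motif TGANTCA, for GGGANTTCC, a form of the NF-kB motif, and for the E box CACGTG. The only match in the 3 windows was the STAT motif of Il19, which began 225 bases before the start; 8.30% of the 32851 promoter windows in the table hold this motif somewhere. The shares for the others were 13.6% for the core promoter box, 7.81% for AP-1, 1.68% for NF-kB and 7.15% for the E box. The windows also differed in base composition, with 44% G and C in Il19, 51.3% in Il20 and 63.3% in Mapkapk2, beside a median of 52.7% over all windows. A match is a description of the letters and says nothing of whether a factor binds there.

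Il20, whose product acts mainly on epithelial cells, was detected on none of the 10 arrays. Its probe (460246) read 147.8, 123.4, 128.9, 146.7 and 128.4 in IL-10+ cells, 111.6, 120.2 and 139.7 in IL-10- cells, and 132.5 and 110.1 in total B cells. These ranges overlap, the detection p lay between 0.565 and 0.974, and the gene entered no test. It thus had no measurable signal between 2 neighbours, Il24 and Il19, whose signal passed the detection limit in IL-10+ cells.

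Il24, which encodes another cytokine of the interleukin-20 group, sat at the edge of detection. The probe (6180609) read 184.2, 166, 186.6, 187.3 and 166 on the IL-10+ arrays, 129.2, 137.7 and 135.9 on the IL-10- arrays, and 151.6 and 120.5 on those of total B cells. It was detected on 3 of 5 IL-10+ arrays, replicates 1, 2 and 3, and on no other array. On the linear scale every IL-10+ array was the higher, but after normalization the IL-10+ and IL-10- arrays overlapped. The levels were 5.54 ± 0.34, 4.81 ± 0.42 and 4.78 ± 0.08 in IL-10+, IL-10- and total B cells. The fitted difference between the sorted groups was 0.72 ± 0.23 (adjusted p = 0.0488); it gives no fold, because the bound that detection allows is below 1. That call was lost in 7 of the other processing settings, and in 6 of the 8 fits that each left out 1 array the adjusted p was above 0.05, up to 0.146. Against total B cells Il24 did not pass (log2 0.76 ± 0.26, adjusted p = 0.0587).

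Among the receptor chains, Il10ra was higher in both sorted groups than in total B cells, and its difference between the sorted groups did not pass. Its probe (3990474) read 368.1, 258.7, 252.4, 268.7 and 273.5 on the IL-10+ arrays, 160.4, 176.5 and 218.9 on the IL-10- arrays, and 159.8 and 130.4 on those of total B cells. It was detected on 5 of 5, 3 of 3 and 0 of 2 arrays. The normalized levels were 7.05 ± 0.44, 6.62 ± 0.15 and 5.08 ± 0.02, so the sorted groups overlapped while both lay above total B cells. IL-10+ cells were at least 2.77-fold above total B cells (adjusted p = 0.000584) and IL-10- cells at least 2.05-fold (adjusted p = 0.00808). With no background correction the differences were 0.72 (adjusted p = 0.0030) and 0.50 (adjusted p = 0.0423) on the log2 scale, below these minima, beside mean intensities of 284.3, 185.3 and 145.1. Without total B replicate 1 or 2 the adjusted p of the IL-10- difference was 0.0580 or 0.0502. IL-10+ and IL-10- cells differed by 0.44 ± 0.22 (95% interval -0.06 to 0.93, adjusted p = 0.205), although each of the 3 pairs had the higher value in IL-10+ cells, by 0.52, 0.52 and 0.36.

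Il10rb, the shared second chain, was detected on all 10 arrays by both of its probes. The brighter probe (3800142) read 963, 929.4, 1081, 1748 and 1575 on the IL-10+ arrays, 485.8, 737.1 and 1144 on the IL-10- arrays, and 1861 and 1149 on those of total B cells. The dimmer probe (5550743) read 456.7, 761, 679.1, 794.5 and 829.8 in IL-10+ cells, 454.8, 650.9 and 764.7 in IL-10- cells, and 1311 and 749 in total B cells. The sorted groups overlapped on both probes, and total B replicate 1 was the brightest array on each. By the brighter probe the levels were 9.87 ± 0.30, 9.84 ± 0.20 and 10.53 ± 0.11 in IL-10+, IL-10- and total B cells. The sorted groups differed by 0.04 ± 0.18 (95% interval -0.36 to 0.43, adjusted p = 0.910). IL-10+ cells lay 1.58-fold below total B cells (log2 -0.66 ± 0.21, adjusted p = 0.0426), a call that was lost without IL-10+ replicate 1, 2, 3 or 4 and without either array of total B cells (adjusted p up to 0.230), and with the slide as a block (-0.53, adjusted p = 0.121). IL-10- cells were also below total B cells on every array, by -0.70 ± 0.22, without passing (adjusted p = 0.0656).

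The dimmer Il10rb probe ran lower in IL-10+ than in IL-10- cells, by -0.60 ± 0.29 in the fit of all detected probes (95% interval -1.25 to 0.05, adjusted p = 0.189; 16.7% of the 16496 probes were called in that fit), with levels of 8.91 ± 0.57 and 9.50 ± 0.33. The differences of both probes between the sorted groups were 0.63 apart, which did not pass an exact permutation test over the 56 ways to split these arrays (two-sided p = 0.0714, 0.143 after adjustment over the 2 such tests made). In the 3 pairs the brighter probe's difference exceeded the dimmer's by 0.19, 0.57 and 0.41, and the test did not use the pairs. In the other test, the difference between the sorted groups was 0.40 larger for Il10ra than for the brighter Il10rb probe (exact permutation p = 0.429); the smallest p this design allows is 0.0179. By the brighter Il10rb probe, the 2 receptor chains were thus not shown to differ unequally between IL-10+ and IL-10- cells. Il10ra was not tested against the dimmer probe, whose fitted difference was -0.60 beside 0.44 for Il10ra, so nothing is concluded for that probe.

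Mapkapk2, the gene next to Il10, was highest in IL-10+ cells, then IL-10- cells, and lowest in total B cells. Its probe (4900142) read 2405, 1766, 1756, 2819 and 2338 on the IL-10+ arrays, 810.5, 903.3 and 1718 on the IL-10- arrays, and 1078 and 743.2 on those of total B cells. On the linear scale every IL-10+ array was the brighter, and the spread among the IL-10- arrays shrank after normalization to levels of 10.80 ± 0.09, 10.46 ± 0.09 and 9.73 ± 0.02 in IL-10+, IL-10- and total B cells. The groups did not overlap on that scale. IL-10+ cells were 2.10-fold above total B cells (log2 1.07 ± 0.12, adjusted p = 0.000274) and IL-10- cells 1.66-fold above them (log2 0.73 ± 0.13, adjusted p = 0.00818). Without total B replicate 1 or 2 the IL-10- comparison had an adjusted p of 0.0531 or 0.0522. The sorted groups differed by 0.34 ± 0.11 (95% interval 0.10 to 0.58), with the IL-10+ array the higher of each of the 3 pairs, by 0.29, 0.35 and 0.45, and with an adjusted p of 0.0507 that missed the threshold.

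**Figure D2:**
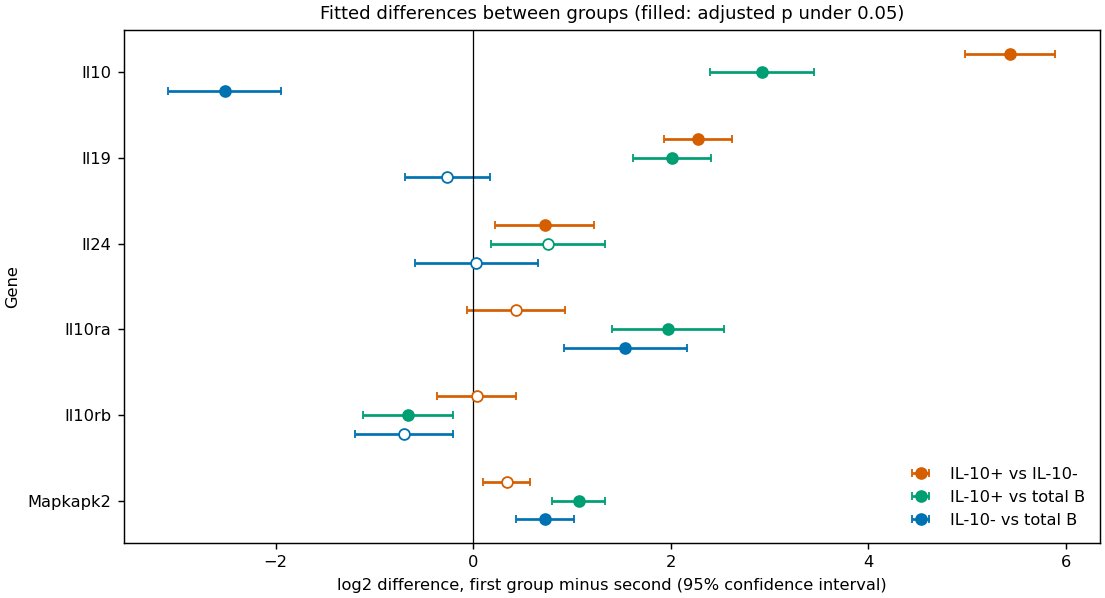
Fitted log2 differences of the 6 tested genes in the 3 group comparisons, with 95% intervals as bars, 0 marked, and filled points for an adjusted p under 0.05. Il10 is the widest difference between IL-10+ and IL-10- cells at 5.44, Il10rb lies at 0.04, and Il10ra and Mapkapk2 lie above 0 in both comparisons with total B cells.

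Of the 7 genes, 6 passed the filter on detection. In IL-10+ against IL-10- cells 3 were called higher (Il10, Il19 and Il24) and 0 lower, in a comparison in which 18.1% of all 11185 genes tested were called, 9.12% higher and 9.01% lower. Il19 and Il24 passed that filter only through the IL-10+ arrays, so this count lends no support of its own. On 24.5% of all genes, 11.6% with IL-10+ the higher, the arrays of these groups did not overlap, as was so for Il10, Il19 and Mapkapk2. Set against total B cells, IL-10+ cells had 4 of the genes called higher and 1 lower (22.4% of all genes called, 12% higher and 10.4% lower), and IL-10- cells had 2 higher and 1 lower (13.6% called, 7.51% higher and 6.04% lower). The arrays did not overlap for 6 of the 6 tested genes in the former (43.1% of all genes) and for 4 in the latter (42.7%). Il19 and Il10ra were detected on no array of total B cells and passed the filter through the groups in which they are high, so these counts are descriptions too. The comparisons share arrays and are not independent of each other.

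**Figure D3:**
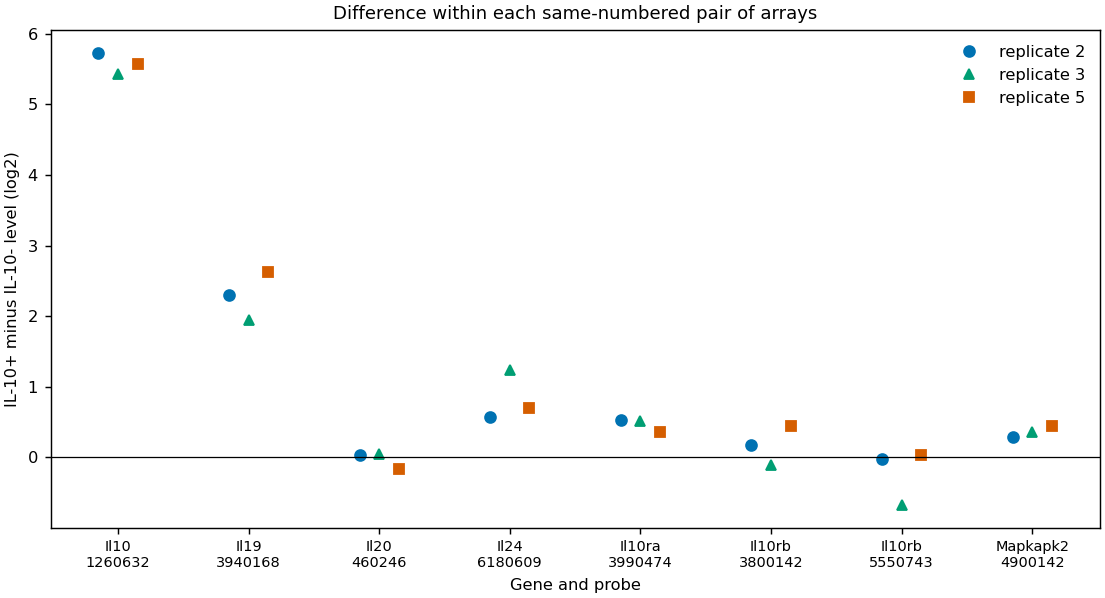
Log2 difference of IL-10+ over IL-10- cells in each of the 3 pairs of arrays with the same replicate number (2, 3 and 5), by probe. Il10 lies between 5.43 and 5.73 and Il19 between 1.95 and 2.63, while Il20 lies on both sides of 0.

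Slide and group were partly mixed: IL-10+ replicates 1, 2 and 3 and IL-10- replicates 2 and 3 were on one slide, and the other 5 arrays, with both of total B cells, on the other. Within the slides the difference between the sorted groups was 5.41 and 5.53 for Il10, 2.05 and 2.70 for Il19, 0.66 and 0.11 for Il10ra, and 0.34 on each slide for Mapkapk2. Against total B cells, on the slide that holds them, IL-10+ cells differed by 1.60 for Il10ra (adjusted p = 0.00701) and by 1.06 for Mapkapk2 (adjusted p = 0.0110). Each member probe was read on 22 to 61 beads per array, with a standard error over beads of 2.42% to 7.14% of the intensity, and the small number of arrays limits the precision.

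Markers of the sorted population moved with the groups as well. All 5 B cell marker genes carried by name were detected on at least 2 arrays. Of them, 3 were lower in IL-10+ than in IL-10- cells, where 9.01% of all genes were lower. Pax5 was detected on only 1 of 5 IL-10+, 1 of 3 IL-10- and 0 of 2 total B arrays. Of the T cell list, Cd3d, Cd3e, Cd4 and Cd8a were detected on no array, and Lat was not called. Cd3g, detected on 3 of 5 IL-10+ arrays and no other, was called higher in IL-10+ cells (fitted log2 difference 0.995, adjusted p = 0.0043). As for Il24, that difference gives no fold, because the bound that detection allows is below 1. The macrophage genes Csf1r, Cd14 and Fcgr1, the dendritic cell genes Flt3, Itgax and Xcr1 and the neutrophil genes S100a8, S100a9 and Mpo were detected on no array. From the macrophage list Mpeg1 was higher in IL-10+ cells by 1.57, whereas Cd68 (-0.10) and Adgre1 (-0.06) were not called. The list's summed level lay between 11.38 and 11.96 in IL-10+ cells, 9.88 and 10.73 in IL-10- cells and 9.95 and 10.42 in total B cells. Mpeg1, at 11.60 in IL-10+ cells, made up most of that sum, beside 7.06 for Cd68 and 5.86 for Adgre1. All 3 measured plasma cell markers were higher in IL-10+ than in IL-10- cells, where 9.12% of all genes were higher, while Sdc1 was undetected. The plasma cell list's summed levels, in which Xbp1 was the brightest gene, ran from 11.93 to 12.46, 11.07 to 11.46 and 11.38 to 11.62 in the same order. Against total B cells Xbp1 was higher in IL-10+ cells (0.64, adjusted p = 0.0274), and Prdm1 and Jchain were not called (adjusted p = 0.737 and 0.0877). The dendritic list's Siglech was lower in IL-10+ than in IL-10- cells by 1.02 (adjusted p = 0.0022). Zbtb46 of the same list, detected on every array by probe 6960639, was not called (0.01, adjusted p = 0.972). The erythroid gene Hbb-b1 was at 7.91, 9.12 and 9.99 in IL-10+, IL-10- and total B cells, lower in IL-10+ cells than in both others (-1.21, adjusted p = 0.0077, and -2.07, adjusted p = 0.000667), with Alas2 undetected. Of the natural killer list, Prf1 was detected on every array and not called (-0.67, adjusted p = 0.315), and Klrb1c and Ncr1 were undetected. The part of these lists in the results above was not tested. Detected probes numbered 14410 to 15610 per array in IL-10+, 13910 to 14313 in IL-10- and 14389 to 14987 in total B cells.

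Other ligands of the family were below detection. Of 4 listed relatives, 3 had a probe by name (Il22, Iltifb and Ifnl3), and each was detected on 0 arrays. Of the 10 listed class II cytokine receptor chains, 6 were measured. Between the sorted groups 0 were called higher and 1 lower, where 9.12% of all genes were higher and 9.01% lower. The median difference was -0.46, beside -0.03 over all genes. The gene called was Ifngr2, the second chain of the interferon-gamma receptor, at 10.10 in IL-10+ and 11.06 in IL-10- cells (-0.96 ± 0.23, adjusted p = 0.0177). The Ifngr2 call was lost without IL-10- replicate 2 or 3 (adjusted p = 0.0572 and 0.0532), within slide 1 or 2 (adjusted p = 0.112 and 0.159), and under median scaling (-0.39, adjusted p = 0.323). Il20rb, a chain of the receptors for interleukins 19, 20 and 24, was detected by probe 5050753 on 5 of 5 IL-10+, 3 of 3 IL-10- and 0 of 2 total B arrays. The other Il20rb probes, 1450193, 2850576, 6480438 and 6480661, were detected on no array. By the detected probe, Il20rb was at least 1.30-fold above total B cells in IL-10+ cells (adjusted p = 0.0122) and at least 1.59-fold in IL-10- cells (adjusted p = 0.0098). Its partners Il20ra and Il22ra1 differed: Il20ra passed on no more than 1 array and was left out, while Il22ra1 was detected on 2 of 5, 3 of 3 and 2 of 2 arrays and was not called in any comparison. In IL-10+ cells 3 chains were lower than in total B cells, where 10.4% of all genes were lower and 12% higher. They were Ifngr2 (-1.27), the type I interferon receptor chain Ifnar2 (-1.03) and the type III interferon receptor chain Ifnlr1, at least 2.06-fold lower. Ifnlr1 was detected by probe 4390543 on 0 of 5 IL-10+, 2 of 3 IL-10- and 2 of 2 total B arrays. Its other probes were detected on no array. Both Ifnlr1 and Il20rb passed the filter only through the groups in which they are high, so these calls lend no support of their own. Ifnar2 was lower in IL-10- cells as well (-0.90, adjusted p = 0.0298). In the IL-10+ comparison, without total B replicate 1 this list had 0 chains called lower, and without replicate 2 it had 0 called higher.

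The list of interleukin-10 receptor signalling genes and their known targets had 13 of 16 genes measured, with 2 higher and 6 lower in IL-10+ than in IL-10- cells, where 9.12% of all genes were higher and 9.01% lower, and a median difference of -0.34, beside -0.03 over all genes. The kinases Jak1 and Tyk2 and the factor Stat3 were not called. Bcl3, a nuclear regulator of NF-kB, fell from 9.39 in IL-10- to 7.95 in IL-10+ cells, 2.73-fold (log2 -1.45 ± 0.25, adjusted p = 0.0040). Il4ra, a chain of the interleukin-4 receptor, fell by 1.03 (adjusted p = 0.0041) and Tnfaip3, which encodes the NF-kB inhibitor A20, by 0.72 (adjusted p = 0.0108). The Bcl3 call was lost in 1 of the 11 other processing settings, and those of Il4ra and Tnfaip3 in 2 each. The smallest differences over these settings were -0.37 for Il4ra and -0.23 for Tnfaip3. Arid5a, which encodes an RNA-binding protein that stabilises cytokine mRNAs, was lower by 1.04 (adjusted p = 0.0063). That call was lost in 3 of the 11 other settings, among them the replicate number as a block (adjusted p = 0.0532), with a smallest difference of -0.43. Both Il4ra and Arid5a were detected on 4 of 5 IL-10+ arrays. A further 3 called genes were picked out after their values were seen. They were Socs3, the feedback inhibitor of Stat3 signalling, at -1.17, Sbno2 at -0.69 and Il1rn, which encodes the interleukin-1 receptor antagonist, at least 1.53-fold higher. Socs3 lost its call without IL-10- replicate 3 (adjusted p = 0.0568) and Il1rn without IL-10- replicate 2 (adjusted p = 0.0525). The Sbno2 call was lost without IL-10+ replicate 1 or IL-10- replicate 3 or 5 (adjusted p up to 0.0858), and with the block it missed as well (adjusted p = 0.0527). With the block the list had 1 higher and 4 lower, and median scaling in place of quantile normalization, which moved the median of all genes to 0.48, gave 3 higher and 1 lower around a list median of 0.13. In the main fit the called genes of this list thus lay on both sides, 6 lower and 2 higher in the cells with more Il10 transcript. Of those named, only Il1rn was higher, by a probe detected on 5 of 5 IL-10+, 0 of 3 IL-10- and 1 of 2 total B arrays.

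In the p38 and MK2 list, 19 of 22 genes were measured, with a median difference between the sorted groups of -0.08. Hspb1, a small heat shock protein phosphorylated by MK2, lay between 6.63 and 7.41 on the IL-10+ arrays and between 4.59 and 6.16 on the IL-10- arrays. It was higher in IL-10+ cells (1.63 ± 0.30, adjusted p = 0.0051) and was detected on 5 of 5 IL-10+ and 1 of 3 IL-10- arrays. Zfp36, whose protein destabilises AU-rich mRNAs and is inhibited by MK2, was lower (-1.19 ± 0.37, adjusted p = 0.0472). The Zfp36 arrays overlapped between the groups, and the call was lost in 6 of the 8 fits that each left out 1 array. In the comparison with total B cells, 7 genes of the list were higher in IL-10+ cells and 1, Zfp36, was lower (-1.61), where 12% of all genes were higher and 10.4% lower; the list's median was 0.34, beside -0.01 over all genes. Map3k5, Mapk12 and Rps6ka5 were detected on 0 of 2 arrays of total B cells and passed the filter through the sorted groups, so this count lends no support of its own. The 7 were Hspb1 (1.31), the kinases upstream of p38 Map2k3 (0.80), Map2k4 (0.40) and Map3k5 (at least 1.74-fold), the p38 isoform Mapk12 (at least 1.13-fold), and the kinases Rps6ka4 (1.01) and Rps6ka5 (at least 1.14-fold). These minima are for the brightest probe of each gene. For Map3k5, probe 6380068 gave at least 1.25-fold, and the bound for probe 5550112 was below 1. The other probes of Mapk12 and Rps6ka5 were detected on no array. Both Mapk14, which encodes the most widely expressed p38 isoform (0.68, adjusted p = 0.0728), and Mapkapk3, the nearest relative of Mapkapk2 (0.28, adjusted p = 0.248), missed the threshold there. Without either array of total B cells only 2 genes of this list were called higher.

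**Figure D4:**
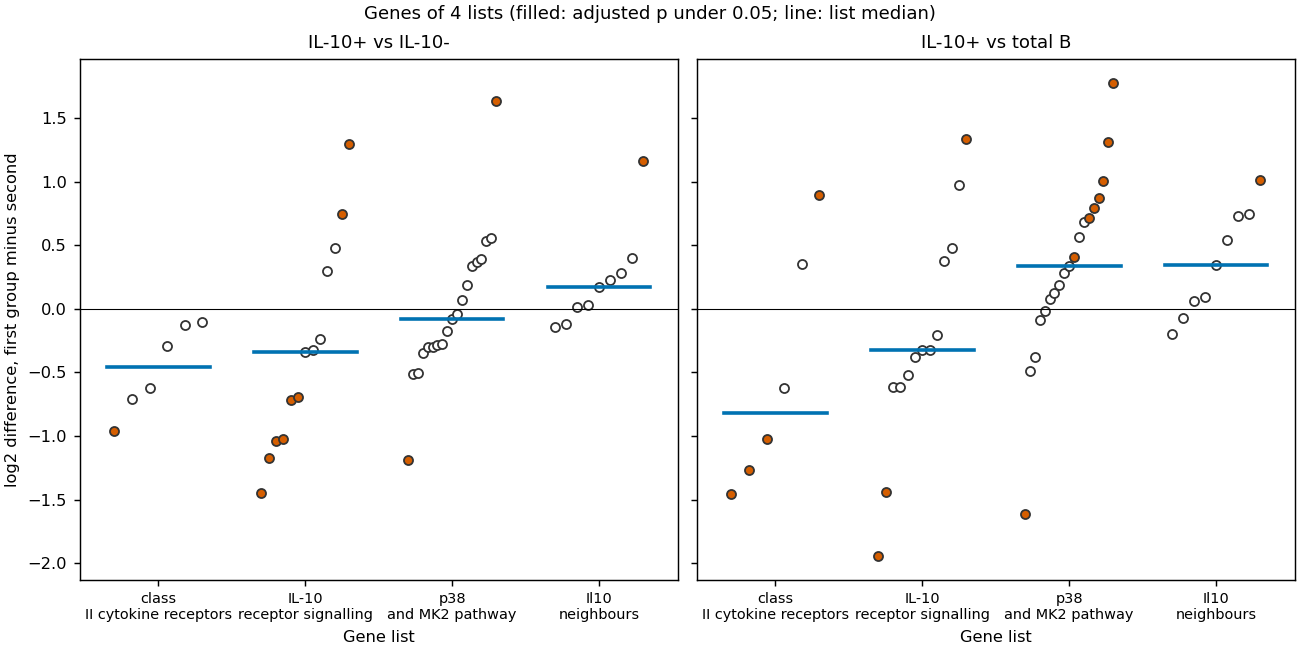
Log2 difference of IL-10+ from IL-10- cells (left) and from total B cells (right) for each measured gene of 4 gene lists, with genes called at an adjusted p under 0.05 filled and a line at each list's median. On the left the signalling and target list has 6 filled points below 0 and 2 above, and the p38 and MK2 list has 1 on each side; on the right the latter has 7 above and 1 below.

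Along chromosome 1, the 21 protein-coding genes from Zp3r to Ctse, in which Il24, Il20, Il19, Il10 and Mapkapk2 lie side by side, included 14 measured genes. Between the sorted groups 4 were called higher (Pigr, Il24, Il19 and Il10) and 0 lower, where 9.12% and 9.01% of all genes were. That count is a description only: Il10 follows the sort, Il19 and Il24 passed the detection filter through IL-10+ arrays alone, and Pigr was detected on 5 of 5, 0 of 3 and 1 of 2 arrays. Among 9 measured genes of the list of neighbours beside the members, the median difference was 0.17 and only Pigr was called. Pigr, the receptor that carries polymeric antibody across epithelia, was at least 1.31-fold higher in IL-10+ cells (adjusted p = 0.0293); it was lost with the replicate block (adjusted p = 0.0518) and in 5 of the 8 fits without 1 array. Fcmr, the IgM receptor gene between Pigr and Il24, was strongly expressed in all groups and differed by 0.17 (adjusted p = 0.352). On the far side of Mapkapk2, Dyrk3, Eif2d, Rassf5, Ikbke and Srgap2 were not called between the sorted groups. Rassf5 was higher than in total B cells by 1.01 in IL-10+ and by 1.13 in IL-10- cells, and Ctse, a protease gene at the end of the stretch, was higher than in total B cells by 1.43 in IL-10+ cells (adjusted p = 0.0124) and by 1.39 in IL-10- cells (adjusted p = 0.0322). Without total B replicate 1 no gene of the neighbour list, Rassf5 included, was called higher than in total B cells in IL-10+ cells.

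**Figure D5:**
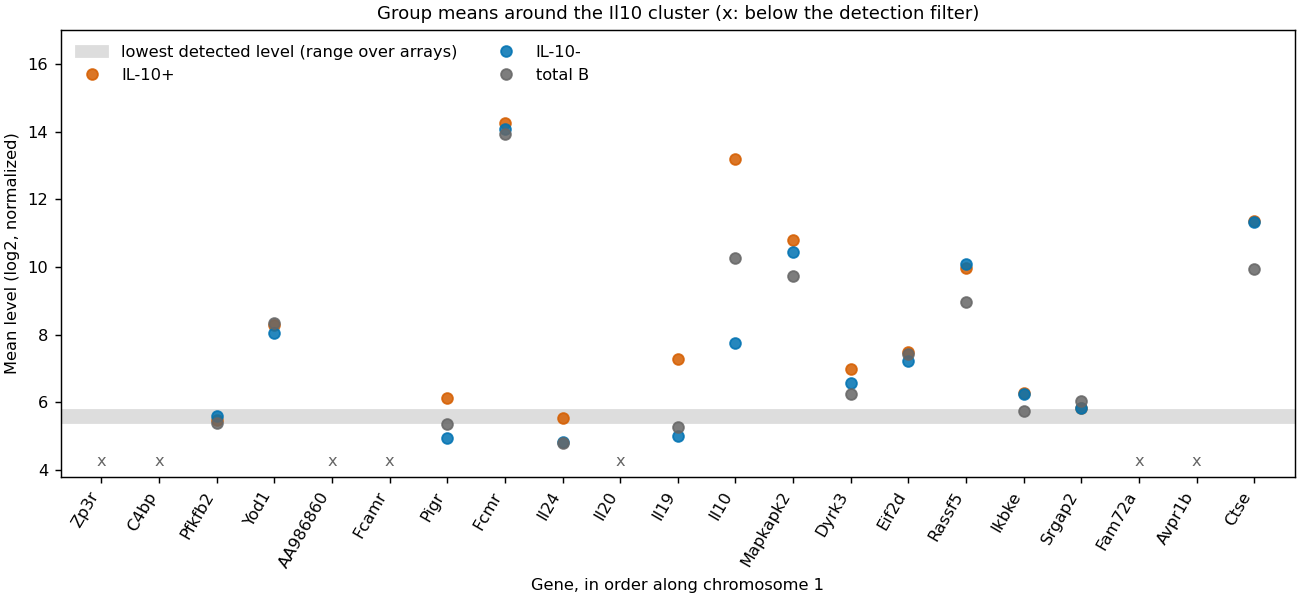
Mean normalized log2 level of each measured gene in the 21-gene stretch of chromosome 1, in gene order and not to scale, with 1 point per group and a grey band at the lowest detected level per array. For Il10 the means are 13.18, 7.75 and 10.26 in IL-10+, IL-10- and total B cells, and for Il19 only the IL-10+ mean, 7.28, lies above the band; a cross marks a gene that did not pass the detection filter.

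The genes whose level was most alike to each member across the 10 arrays were found by Pearson's correlation, as a description that follows the group means. For Il10 they were Anxa2 (0.980), Rbm47 (0.978), Ckb (0.970), Cd80 (0.969) and Bcl2l2 (0.968). Il19 was nearest to Tbc1d9 (0.991), Cdc14b (0.988) and Rxra (0.985), and Il24 to Itpr2 (0.946), Actn1 (0.943) and Ndst1 (0.940). Il10ra and Mapkapk2 shared a near gene, Crip2 (0.967 and 0.978); the others were Pstpip1 (0.975) and Ass1 (0.972) for Il10ra, and Evi2a (0.980) and Tlr2 (0.978) for Mapkapk2. Il10rb was nearest to Ifnar2 (0.925), Khdc4 (0.909) and Anxa3 (0.908). The arrays share slides and groups, and no function in common follows from these values.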

How the data were processed

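Per the file headers, the deposited table held mean bead intensity per probe, exported from GenomeStudio 1.9.0 with no normalization. It also held, per the file headers, the count of beads, the error over beads and a detection score, a fraction from 0 to 1 deposited by the authors, and 1 minus that score was used as detection p. The submitters' processing notes also name lumi; the log2 table of processed values deposited by the authors was not used, because its probe identifiers could not be paired. Names were updated through RefSeq (GRCm38.p6): of 30854 names 16223 were symbols, 5706 synonyms, 117 ambiguous and 8808 unmatched.

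Intensities were background-corrected and quantile-normalized with neqc (offset 16) of limma 3.58.1 in R 4.3.3. A probe was kept when 2 or more arrays had a detection p under 0.01 (16496 probes), the brightest per gene was used (11185 genes), and lmFit and eBayes compared the 3 groups in a single fit of 10 arrays. P-values were adjusted by Benjamini and Hochberg's method across the 11185 genes, with calls at 0.05. The fit was tested on simulated data. The members, lists and tests were chosen with earlier results of these data known. Genes named were every member, up to 4 called genes per list with the smallest adjusted p between IL-10+ and IL-10- cells, the nearest genes by correlation, and those said to be picked after their values were seen; 1 called gene of the signalling list is not reported here.

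Replicate numbers in the sample titles were taken to pair IL-10+ with IL-10- arrays, since deviations of same-numbered arrays correlated at 0.348, 0.238 and 0.319. The value was 0.276 for IL-10- replicate 5 with IL-10+ replicate 4, of the same slide and another number. Alternatives changed background correction, offset, scaling, detection filter, probes, samples fitted, slide, the replicate block and each array in turn.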

Additional observations from a re-analysis of the deposited data

Results flagged for a closer look

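The intensity of Il10ra on IL-10+ replicate 1 was 368.1, against 252.4 to 273.5 on the other 4 IL-10+ arrays, and this array stood farther from the rest than the usual spread of such a group allows. It was 1 of 28 groups of values checked, and chance marks about 1 in 20. The normalized level of this probe, on which the fits rest, was checked as well and was not flagged. It was 7.59 on that array and 6.42 to 7.31 on the other 4 IL-10+ arrays. Leaving out any single array kept the Il10ra difference between IL-10+ and IL-10- cells between 0.30 and 0.60.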

How the results depend on the processing

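Of 440 values under other settings, 372 were unchanged, as were 267 of 320 values from fits that left out 1 array. For a gene, unchanged meant the same direction and side of the threshold. For a count of genes called, it meant a count of similar size. The count between IL-10+ and IL-10- cells, 2028, was 749 and 617 within the slides, 1331 with the replicate block, which used the replicate numbers as pairs and changed no call of a member gene, and 1255 to 2020 without 1 array. Median scaling moved the median of all genes to 0.48, 0.23 and -0.26 and gave 2440 higher and 78 lower genes between the sorted groups. The counts against total B cells were 1314 (1023 higher, 291 lower) for IL-10+ and 599 (99 higher, 500 lower) for IL-10- cells under median scaling, and 430 for the latter when only both groups entered. Without 1 array they ranged from 1015 (without total B replicate 1; 1272 without replicate 2) to 2391 and from 398 (without replicate 1; 506 without replicate 2) to 1551.

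Between the sorted groups Il24 missed the threshold with no background correction (0.23), an offset of 50 (0.37), no filter, all probes or only both groups (0.72 each), slide 1 (0.76) and slide 2 (0.75), and it was not tested when detection on at least 5 arrays was required. Il10ra passed under median scaling (0.98), Il10rb turned to -0.13 within slide 1, and Mapkapk2 passed with no background correction (0.31), an offset of 50 (0.33), median scaling (0.92), 5 arrays (0.34) and the slide block (0.34). Against total B cells in IL-10+ cells, Il24 passed when only both groups entered (0.76), and Il10rb missed under median scaling (-0.37), no filter (-0.66), the slide block (-0.53) and slide 2 (-0.44). In IL-10- cells, Il24 turned to -0.013 with no correction, -0.027 under median scaling and -0.32 with the slide block and on slide 2; Il10ra missed under median scaling (1.14); Il10rb passed with no correction (-0.62) and an offset of 50 (-0.68); and Mapkapk2 missed under median scaling (0.42), with only both groups (0.73) and on slide 2 (0.72). The cause was not tested.

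Without 1 array, between the sorted groups Il24 ranged from 0.55 to 0.96, Il10rb from -0.057 to 0.15, Mapkapk2 from 0.30 to 0.39, Il10ra from 0.30 to 0.60, Il10 from 5.32 to 5.52 and Il19 from 2.11 to 2.41. Against total B cells Il10rb ranged from -0.75 to -0.54 and Il24 from 0.66 to 0.85 in IL-10+ cells, and Il24 from -0.20 to 0.21, Il10ra from 1.45 to 1.60, Il10rb from -0.81 to -0.60 and Mapkapk2 from 0.68 to 0.77 in IL-10- cells. The alternative with the authors' processed values was not run. Signals near background limit Il19, Il20 and Il24.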
